A study of Homo sapiens with 8 samples.

Results

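The integrated stress response genes described here are ATF4, DDIT3, DDIT4, TRIB3, CHAC1, SESN2, ATF3, XBP1, PPP1R15A and ATF5. They were chosen by name, as transcription factors and targets of the unfolded protein and integrated stress responses, and every probe of each gene was taken. This gave 14 of the 58201 probes on the array and 10 of the 22439 gene symbols to which a probe could be matched. A gene was called measured when one of its probes was well above background on all 8 arrays. All 10 genes and 13 of the 14 probes were measured, against 10959 genes and 16808 probes over the whole array.

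A431 cells, an established human line from a squamous carcinoma of the skin, were transfected with miR-NC, a control microRNA, or with miR-634, each at 10 nM, and were lysed 24 h later. RNA bound by AGO2 was precipitated with an antibody against AGO2 (RIP), and this RNA and an input RNA were hybridized to one-color Agilent arrays. Each kind of cell thus gave 2 input arrays and 2 RIP arrays. Per the labels, normal rabbit IgG was the antibody behind the input arrays, whereas the study's methods describe total RNA, and these arrays are called input here. All groups came from 1 cell line, the labels do not say that the arrays of a group came from separate transfections, and p-values therefore measure only the spread between arrays, which may be technical.

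The integrated stress response joins several stress sensors to a single switch in translation. Kinases that sense unfolded proteins in the endoplasmic reticulum, lack of amino acids, lack of heme or double-stranded RNA phosphorylate the initiation factor eIF2, which slows translation of most mRNAs while that of ATF4, ATF5, DDIT3 and PPP1R15A is maintained or increased through open reading frames upstream of their coding sequence. ATF4 then activates genes of amino acid supply and redox balance, and with DDIT3 (CHOP) genes of cell death, whereas the parallel IRE1 branch of the unfolded protein response splices XBP1 mRNA. AGO2 is the protein that holds a microRNA against its target mRNA, so the enrichment of an mRNA in the RIP is a readout of its association with AGO2 and not of its level in the cell.

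The mature miR-634 of RefSeq is shown because its seed, bases 2 to 8 from the 5′ end, is the part through which AGO2 recognizes targets. The capitals mark the seed, and the miRNA lies at chr17:66787132-66787153 on the plus strand of GRCh38.p14.
hsa-miR-634: aACCAGCAccccaacuuuggac
A perfect match to this seed in an mRNA reads UGCUGGU, and such sites were not searched in transcripts of the 10 genes here.

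On the input arrays 45.6% to 45.8% of the spots were well above background, on the miR-NC RIP arrays 33.6% and 34.5%, and on both miR-634 RIP arrays 40.0%. No spot was saturated. The arrays shared 1 slide and 1 scan, and since row 1 held input, row 2 RIP, columns 1 and 2 miR-NC and columns 3 and 4 miR-634, slide position and group cannot be told apart. All 8 markers fixed for squamous cells (KRT5, KRT14, KRT17, KRT6A, TP63, EGFR, CDH1 and SFN) were well above background on all 8 arrays. Of the 7 markers of other cell types, CD3E, PECAM1, COL1A2 and ALB were well above background on 0 arrays, PTPRC and COL1A1 on at most 4, and the endothelial CDH5 on 8. In such bulk RNA, fewer cells that express a gene and less RNA per cell cannot be told apart.

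Levels are given on the log2 scale relative to the array's 75th percentile over the probes well above background on all 8 arrays, which is 0 on this scale. They compare arrays for 1 probe and not 1 gene with another. The enrichment is the RIP level minus the input level, and the fold change of enrichment compares it between the cells, as miR-634 over miR-NC. Because RIP and input RNA were each scaled to their own bulk, every difference is relative to the other measured genes. Scaling on the 10 spike-in probes instead shifted the median of all measured genes by 1.08 for the fold change of enrichment, -0.18 for the input change, 0.91 for the RIP change and, for enrichment itself, -2.47 in the miR-NC and -1.39 in the miR-634 cells. Directions that turned with this or another scaling are named where they are given.

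The levels of the 10 genes on all arrays showed little spread within a group and large differences between groups (the plot of levels by array). The widest gap between the 2 arrays of a group for a probe that stood for its gene was that of TRIB3 in the miR-634 RIP, with 4.59 and 4.90. Over all measured genes the median SD within a group was 0.04 on the miR-NC input arrays, 0.06 on the miR-NC RIP arrays, 0.04 on the miR-634 input arrays and 0.06 on the miR-634 RIP arrays.

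**Figure D1:**
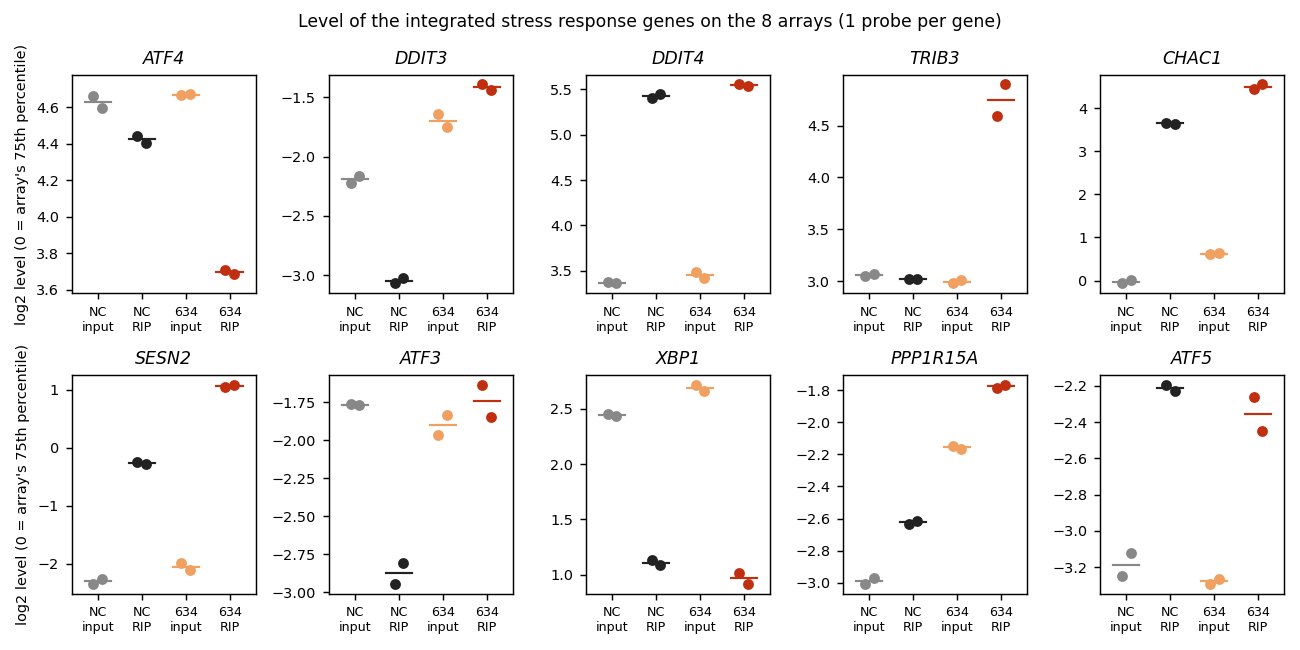
Log2 level of each of the 10 genes relative to the array's 75th percentile (y axis, with its own range in each panel), by kind of cell and kind of RNA. Points are arrays (2 per group) and bars are group means. PPP1R15A, CHAC1 and DDIT3 had higher input levels in miR-634 cells, and ATF4 had a miR-634 RIP level of 3.71 and 3.69 against 4.44 and 4.40 in the miR-NC RIP.

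In the input, 5 of the 10 genes were higher in miR-634 cells than in miR-NC cells by limma with Benjamini-Hochberg adjustment at a threshold of 0.05, and 0 were lower. Over all 10959 measured genes, 11.6% were called higher and 12.1% lower. Those called were PPP1R15A, CHAC1, DDIT3, SESN2 and XBP1, with log2 changes of 0.84, 0.65, 0.49, 0.25 and 0.24. The median over the 10 genes was 0.16, against -0.0052 over all measured genes. None of the 10 passed a 2-fold change in input, as did 0.109% of all genes upward. With spike-in scaling all 5 stayed above 0 but 1 of them, PPP1R15A, was called. Over all 10959 measured genes this scaling gave 64 called higher. The calls of SESN2 and XBP1 did not hold without single input arrays, as given below.

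In the RIP, 6 of the 10 genes were higher in miR-634 cells (30.9% of all genes) and 2 were lower (46.5% of all genes), which became 9 and 0 with spike-in scaling. Over all 10959 measured genes this scaling gave 7829 higher and 357 lower. TRIB3, DDIT3, SESN2, ATF3, CHAC1 and PPP1R15A had log2 RIP changes of 1.72, 1.63, 1.33, 1.13, 0.85 and 0.85. ATF4 had -0.73, which became 0.18 with spike-in scaling. XBP1 had -0.14, with an adjusted p of 0.0470, and it turned above 0 with spike-in scaling (0.77), a percentile taken over all probes (0.03), the authors' processed values (0.03) and with the change centered on its median (0.04), keeping its call in 6 of the 21 alternatives.

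The fold change of enrichment joins these, and 4 of the 10 genes were called higher, against 28.1% of all measured genes. The counts of 4 higher and 2 lower became 9 and 0 with spike-in scaling, 7 and 1 with the change centered on its median, and 6 and 2 with quantile normalization. Over all measured genes, 3079 higher and 4730 lower became, in the same order, 7598 and 205, 3844 and 3349, and 3149 and 4392. Of the 10 genes, those called higher were TRIB3 at 1.79, ATF3 at 1.27, DDIT3 at 1.14 and SESN2 at 1.07. Each of them was over 2-fold, as were 13.3% of all genes upward. ATF4 at -0.77 and XBP1 at -0.38 were called lower, as were 43.2% of all genes, although with spike-in scaling they had 0.31 and 0.70. CHAC1, DDIT4, PPP1R15A and ATF5, at 0.20, 0.03, 0.01 and -0.05, were not called, and ATF5 turned above 0 with spike-in scaling (1.03), the change centered on its median (0.17) and a percentile taken over all probes (0.07). The median over the 10 genes was 0.12, against -0.22 over all measured genes. The comparisons share arrays, so the fold change of enrichment, the input change and the RIP change are not independent of each other.

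**Figure D2:**
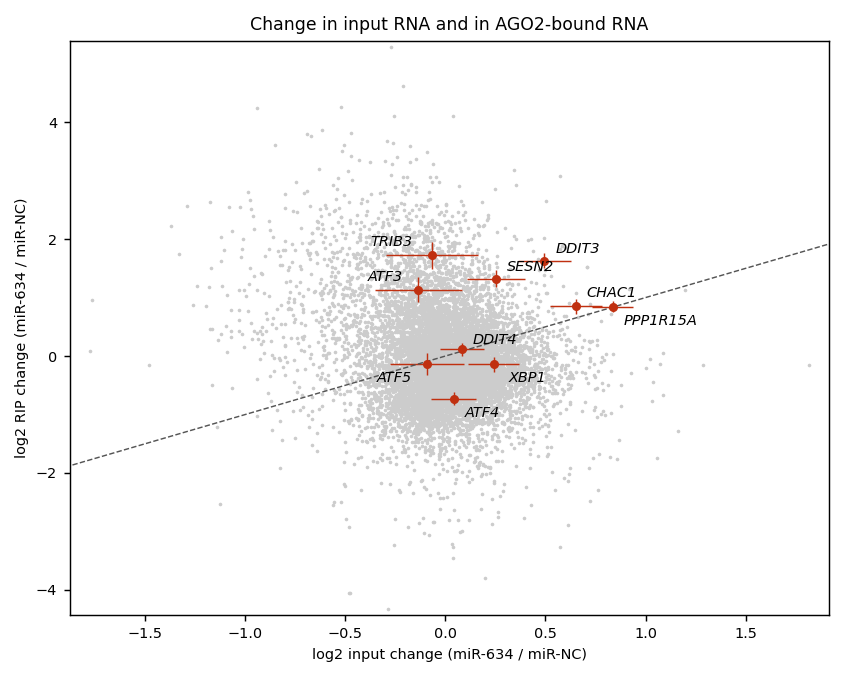
Log2 RIP change (y axis) against log2 input change (x axis), miR-634 over miR-NC cells, for the 10 genes (red, with 95% confidence intervals from limma) and for all 10959 measured genes (gray). On the dashed line both changes are equal. PPP1R15A lies near it, with 0.84 in the input and 0.85 in the RIP, whereas TRIB3 and ATF3 have RIP changes of 1.72 and 1.13 with input changes of -0.07 and -0.13. Spike-in scaling puts the RIP change of ATF4 at 0.18 in place of -0.73.

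Already in miR-NC cells the genes differed widely in enrichment, from 3.67 for CHAC1 to -1.34 for XBP1. In these cells 5 genes were higher in the RIP than in the input (33.5% of all genes) and 4 were lower (45.3% of all genes). In miR-634 cells 7 were higher (36.1% of all genes) and 2 lower (48.3% of all genes). With spike-in scaling 1 was higher and 9 lower in miR-NC cells, and 3 higher and 6 lower in miR-634 cells. Over all 10959 measured genes it gave 70 higher and 10729 lower in miR-NC cells, and 800 and 9110 in miR-634 cells. CHAC1, SESN2, DDIT4, ATF5 and PPP1R15A were enriched in both kinds of cells, but with spike-in scaling SESN2, DDIT4, ATF5 and PPP1R15A had -0.42, -0.41, -1.50 and -2.10 in miR-NC cells, and ATF5 and PPP1R15A -0.46 and -1.01 in miR-634 cells. CHAC1 stayed above 0 in both kinds of cells, with a lowest log2 enrichment over all alternatives of 1.21 in miR-NC and 2.49 in miR-634 cells. A larger enrichment than that of CHAC1 was found for 0.201% of all measured genes in miR-NC cells and for 0.155% in miR-634 cells.

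**Figure D3:**
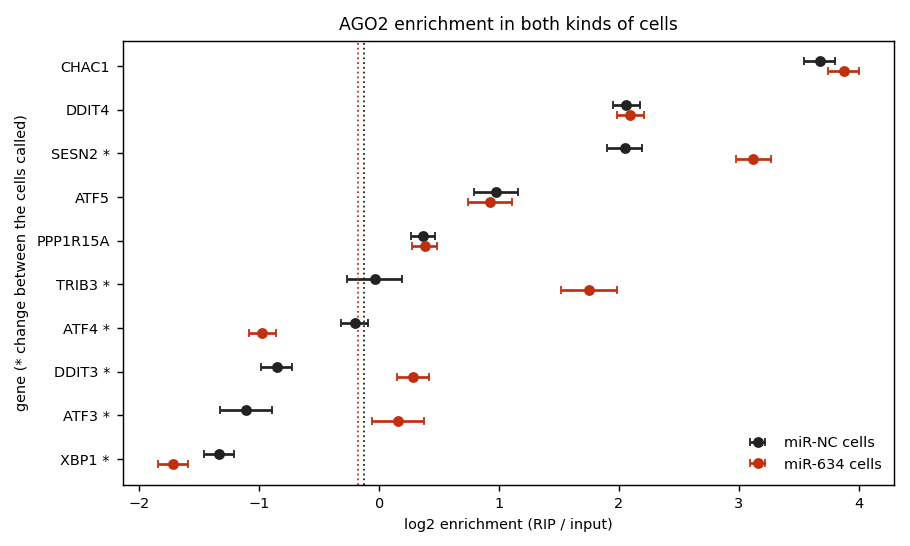
Log2 enrichment (RIP over input, x axis) of the 10 genes (y axis) in miR-NC cells (black) and miR-634 cells (red), with 95% confidence intervals from limma on 2 arrays per group. Dotted lines give the median of all measured genes (-0.12 and -0.17), and a star marks genes whose enrichment differed between the cells. TRIB3, ATF3, DDIT3 and SESN2 lie further right in miR-634 cells, and ATF4 and XBP1 further left, which turned with spike-in scaling.

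Among the transcription factors, ATF4 is the one that the eIF2 kinases feed. Its probe (NM_001675) had input levels of 4.66 and 4.59 in miR-NC cells and of 4.67 and 4.67 in miR-634 cells. The groups did not overlap but differed little, with a log2 change of 0.04 (standard error 0.05, limma adjusted p = 0.562) that became -0.14 with spike-in scaling. The RIP levels were 4.44 and 4.40 in miR-NC cells and 3.71 and 3.69 in miR-634 cells, so that both miR-634 RIP arrays lay below both miR-NC RIP arrays. The log2 enrichment was -0.20 in miR-NC and -0.97 in miR-634 cells, which made the fold change of enrichment 0.587 (log2 -0.77 with a standard error of 0.06, limma adjusted p = 8.27e-05). Of all measured genes 83.3% had a larger value, and with spike-in scaling it was 0.31 (adjusted p = 0.265). The log2 enrichment in miR-NC cells was not called with the enrichment centered on its median (-0.08, adjusted p = 0.152).

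DDIT3, also called CHOP, is the factor of the pathway best known for promoting cell death. In the input its levels were -2.22 and -2.17 in miR-NC cells and -1.65 and -1.75 in miR-634 cells, which did not overlap. The log2 input change was 0.49 (standard error 0.05, limma adjusted p = 0.00224), and 2.13% of the measured genes had a larger one. With spike-in scaling it was 0.32 (adjusted p = 0.319). In the RIP it had the lowest levels of its 4 groups in miR-NC cells, -3.07 and -3.03, and the highest in miR-634 cells, -1.39 and -1.44. Its log2 enrichment was therefore -0.86 in miR-NC and 0.28 in miR-634 cells (-1.10 with spike-in scaling), which made the fold change of enrichment 2.20 (log2 1.14 with a standard error of 0.08, limma adjusted p = 3.22e-05). On the miR-NC RIP arrays, on which these values rest, the processed intensities of DDIT3 were as low as 85 and 82.

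ATF3, a factor induced downstream of ATF4, was covered by 4 probes, which differed. The brightest (A_23_P34915, NM_001040619) had input levels of -1.76 and -1.77 in miR-NC cells and of -1.96 and -1.83 in miR-634 cells, a log2 change of -0.13 that was not called (limma adjusted p = 0.326), although -0.18 was with the mean of the probes (adjusted p = 0.0417). Its RIP levels were -2.94 and -2.80 in miR-NC cells, the lowest of all groups, and -1.63 and -1.85 in miR-634 cells, which overlapped the input. The log2 enrichment went from -1.11 to 0.16 (-1.23 with spike-in scaling), which made the fold change of enrichment 2.41 (log2 1.27 with a standard error of 0.13, limma adjusted p = 0.000175).
A dimmer probe for another transcript (A_33_P3214105, NM_001674) gave 2.71 (log2 1.44, limma adjusted p = 8.49e-05), with RIP levels of -4.34 and -4.17 in miR-NC cells and -3.08 and -3.00 in miR-634 cells. On the miR-NC RIP arrays its processed intensities were as low as 35 and 37, and those of the brightest probe were 93 and 96. A further probe for NM_001040619 (A_33_P3214096) gave 1.07 (log2 0.10, standard error 0.23, limma adjusted p = 0.711), with RIP levels of -3.42 and -3.88 against -3.82 and -3.62 that overlapped. The remaining probe (A_24_P33895, NM_001040619) was well above background on both miR-NC input arrays, on 1 miR-634 input array and on 0 RIP arrays, so no fold is given. With the mean of the ATF3 probes the log2 enrichment was -0.14 in miR-NC and 0.80 in miR-634 cells, and the log2 fold change of enrichment 0.94.

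XBP1 encodes the factor of the IRE1 branch, and its mRNA is spliced in the cytoplasm under stress of the endoplasmic reticulum. Whether its probe (NM_005080) tells the spliced form apart is not given in the sources used here. The input levels of XBP1 were 2.45 and 2.43 in miR-NC cells and 2.72 and 2.66 in miR-634 cells, a log2 change of 0.24 (limma adjusted p = 0.0215). The groups did not overlap, but the call was lost without any 1 of the 4 input arrays, with adjusted p between 0.0702 and 0.116, and with spike-in scaling (0.07, adjusted p = 0.861). The RIP levels were lower than the input in both kinds of cells, at 1.13 and 1.08 in miR-NC cells and 1.02 and 0.92 in miR-634 cells. XBP1 had the lowest enrichment of the 10 genes in both, -1.34 and -1.72, and 96.6% and 96.3% of the measured genes had a larger one. Its fold change of enrichment was 0.767 (log2 -0.38, standard error 0.07, limma adjusted p = 0.00375). With spike-in scaling its log2 value was 0.70 and was called higher (limma adjusted p = 0.0119). It was not called with the change centered on its median (-0.17, adjusted p = 0.0918), the authors' processed values (-0.26, adjusted p = 0.0594) or a percentile taken over all probes (-0.26, adjusted p = 0.0595).

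ATF5, a relative of ATF4 that also acts in mitochondrial stress, had input levels of -3.25 and -3.12 in miR-NC cells and -3.29 and -3.26 in miR-634 cells. Its RIP levels were -2.19 and -2.23 in miR-NC cells and -2.26 and -2.45 in miR-634 cells. The RIP lay above the input in both kinds of cells, with log2 enrichments of 0.97 and 0.92 (-1.50 and -0.46 with spike-in scaling). No difference between the cells was called for ATF5, with a 95% confidence interval of -0.31 to 0.21 for the log2 fold change of enrichment and -0.28 to 0.09 for the log2 input change.

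Among the targets, TRIB3 encodes a pseudokinase that binds ATF4 and AKT. Its input levels were 3.05 and 3.06 in miR-NC cells and 2.98 and 3.01 in miR-634 cells, and the RIP levels in miR-NC cells, 3.02 and 3.02, were close to them. The miR-634 RIP arrays stood apart, at 4.59 and 4.90. The log2 enrichment was -0.04 in miR-NC cells (limma adjusted p = 0.728), with signs that turned to 0.01 with median scaling and 0.09 with the change centered on its median, and 1.75 in miR-634 cells. With spike-in scaling the latter was 0.36 (adjusted p = 0.0535). TRIB3 had the largest fold change of enrichment of the 10 genes, 3.45 (log2 1.79, standard error 0.13, limma adjusted p = 5.09e-05), and 5.25% of all measured genes had a larger one. Over all 21 alternatives its log2 value lay between 1.63 and 2.87. The input change, -0.07, had a 95% confidence interval of -0.30 to 0.16.

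SESN2 encodes sestrin 2, which holds down mTORC1 when leucine is scarce. Its input levels were -2.35 and -2.26 in miR-NC cells and -1.99 and -2.11 in miR-634 cells. The log2 input change of 0.25 (limma adjusted p = 0.0280) was not called without the miR-NC input array numbered 1 (adjusted p = 0.157), the miR-NC input array numbered 2 (0.0721) or the miR-634 input array numbered 1 (0.135). The RIP levels were far above the input, at -0.24 and -0.28 in miR-NC cells and 1.05 and 1.09 in miR-634 cells. The log2 enrichment was 2.05 in miR-NC cells (-0.42 with spike-in scaling) and 3.12 in miR-634 cells, and 0.803% of the measured genes had a larger one in the latter. SESN2 thus was enriched 2.10-fold more in miR-634 cells (log2 1.07, standard error 0.08, limma adjusted p = 6.14e-05).

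CHAC1, which breaks down glutathione, had the largest enrichment of the 10 genes in both kinds of cells and 2 probes for the same transcript (NM_024111). The brighter one (A_33_P3376971) had input levels of -0.07 and 0.01 in miR-NC cells and 0.61 and 0.63 in miR-634 cells. Its RIP levels were 3.65 and 3.64 in miR-NC cells and 4.44 and 4.55 in miR-634 cells. All 4 groups were separate, and the RIP was 12.8-fold above the input in miR-NC and 14.7-fold in miR-634 cells. The input rose by 0.65 on the log2 scale (standard error 0.05, limma adjusted p = 0.000923), and 0.684% of the measured genes had a larger input change. With spike-in scaling it was 0.48 (adjusted p = 0.0954). The fold change of enrichment of the brighter probe was 1.15 (log2 0.20, standard error 0.08, limma adjusted p = 0.0529), and it was called in 10 of the 21 alternatives.
The dimmer CHAC1 probe (A_33_P3376965) gave 1.62 for the same ratio (log2 0.70, standard error 0.09, limma adjusted p = 0.000727). Its input levels were -3.83 and -3.83 in miR-NC cells and -3.33 and -3.46 in miR-634 cells, and its RIP levels -0.56 and -0.63 in miR-NC cells and 0.48 and 0.58 in miR-634 cells. Both CHAC1 probes thus had a higher input in miR-634 cells and enrichments above 9-fold in both kinds of cells, and differed in whether the change of enrichment was called.

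**Figure D4:**
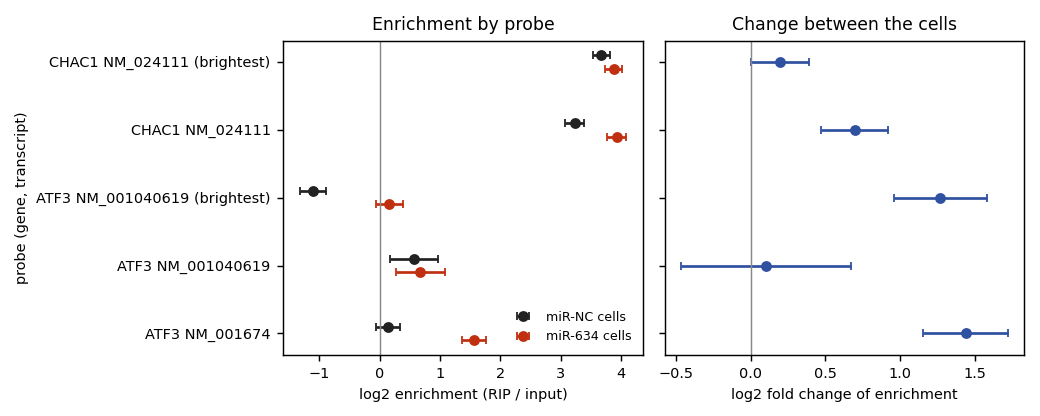
Probes of CHAC1 and ATF3 (y axis, with the transcript each was designed for). Left, log2 enrichment in miR-NC cells (black) and miR-634 cells (red), right, log2 fold change of enrichment (x axes), with 95% confidence intervals from limma. Both CHAC1 probes lie above 3 on the left, whereas of the ATF3 probes the brightest and the one for NM_001674 have fold changes of 1.27 and 1.44 on the log2 scale and the third 0.10.

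PPP1R15A, also called GADD34, brings protein phosphatase 1 to eIF2 and so ends the response. Its input levels were -3.01 and -2.97 in miR-NC cells and -2.14 and -2.16 in miR-634 cells. Its RIP levels were -2.63 and -2.61 in miR-NC cells and -1.79 and -1.76 in miR-634 cells, so that RIP and input rose side by side. The log2 input change of 0.84 (1.79-fold, standard error 0.04, limma adjusted p = 0.000235) was the largest of the 10 genes, and 0.173% of all measured genes had a larger one. It was called in all 21 alternatives, with log2 values from 0.66 to 0.89. The fold change of enrichment was 1.01 (log2 0.01, 95% confidence interval -0.13 to 0.15, limma adjusted p = 0.880), which was -0.0061 without the miR-NC input array numbered 2. It was called with the change centered on its median (0.23, adjusted p = 0.0145) and with spike-in scaling (1.09).

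DDIT4, also called REDD1, holds down mTORC1. Its input levels were 3.38 and 3.36 in miR-NC cells and 3.48 and 3.42 in miR-634 cells, and its RIP levels 5.41 and 5.45 in miR-NC cells and 5.55 and 5.54 in miR-634 cells. The RIP was 4.17-fold and 4.27-fold above the input in miR-NC and miR-634 cells (log2 2.06 and 2.10), the first of which was -0.41 with spike-in scaling. The difference between the cells was small, with a log2 fold change of enrichment of 0.03 (95% confidence interval -0.12 to 0.19, limma adjusted p = 0.654), although quantile normalization (0.30), normexp with quantile normalization (0.25), centering on the median (0.25) and spike-in scaling (1.12) made it a call. The log2 RIP change of 0.12 (adjusted p = 0.0513) was called in 8 of the 21 alternatives.

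Windows from 250 bases before to 50 bases after the transcription start were taken from RefSeq (GRCh38.p14) for all 10 genes and searched on both strands for motifs known from these responses. Stretches are shown for the 4 genes that held such a motif, PPP1R15A, CHAC1 and XBP1, which were higher in the input, and ATF3, which was not. DDIT3 and SESN2, also higher in the input, held none with these exact letters. Near matches were not searched, so elements that differ from these letters could be present. A gene with several starts counted when any of its windows held the motif, and further windows of ATF3 and XBP1 held none. The motif of the C/EBP-ATF response element, TGATGNAA, was in windows of 2 of the 10 genes, CHAC1 and ATF3. It was in those of 4.46% of 27305 genes and in 3.62% of 35116 windows. The cAMP response element, TGACGTCA, was in the window of PPP1R15A and of 2.25% of genes. The endoplasmic reticulum stress element, CCAAT and CCACG with 9 free bases between them, was in that of XBP1 and of 0.0916% of genes, and the unfolded protein response element, TGACGTGG, was in none of the 10 and in 0.927% of genes. Capitals mark the motif in the following 30-base stretches, which are at chr1:212565205-212565234 (plus strand), chr15:40953251-40953280 (plus strand, with the motif on the minus strand), chr19:48872352-48872381 (plus strand) and chr22:28800597-28800626 (minus strand).
ATF3: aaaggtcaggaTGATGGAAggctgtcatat
CHAC1: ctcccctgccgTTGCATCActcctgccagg
PPP1R15A: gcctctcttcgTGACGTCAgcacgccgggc
XBP1: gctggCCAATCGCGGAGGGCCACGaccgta
A match is a description of the letters in these windows, and binding of a factor was not measured.

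Genes upstream of ATF4 are the eIF2 kinases and the subunits of eIF2 and of its exchange factor eIF2B, with the phosphatase that acts on eIF2. Of 17 such genes 15 were measured, and 6 were called higher and 7 lower in the fold change of enrichment, with a median of -0.11, against 28.1% and 43.2% of all measured genes. EIF2B4 and EIF2B3, subunits of eIF2B, and PPP1CB, a catalytic subunit of the phosphatase, had the largest rises, 2.37, 1.50 and 1.68 on the log2 scale. PPP1CC, EIF2B1 and EIF2B2 had the largest falls, -0.98, -0.86 and -0.82, which were 0.10, 0.22 and 0.26 with spike-in scaling. In the input, 2 were higher and 3 lower, against 11.6% and 12.1% of all measured genes, among them DNAJC3, an inhibitor of the kinases, at 0.53, and PPP1CB and PPP1CA at -0.31 and -0.24. PPP1CC, at 0.16 in the input, was -0.01 with spike-in scaling.

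Of the kinases, the heme sensor EIF2AK1 rose 1.70-fold in enrichment (log2 0.76, limma adjusted p = 0.000300). Its log2 input change of 0.10 was not called (adjusted p = 0.302) and was -0.08 with spike-in scaling. EIF2AK2, the sensor of double-stranded RNA, had -0.42 (adjusted p = 0.0387) and was not called in 14 of the 21 alternatives. With spike-in scaling EIF2AK2 was called higher, at 0.66 (limma adjusted p = 0.0171). EIF2AK4, the sensor of amino acid lack, had -0.02 (adjusted p = 0.920), a sign that turned under several scalings, and EIF2AK3 (PERK) was not measured.

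Of 35 targets of ATF4 and CHOP other than the 10 genes, 31 were measured. In the input 11 were called higher and 1 lower (11.6% and 12.1% over all measured genes), with a median of 0.15. CDKN1A, an inhibitor of the cell cycle, and VEGFA, an angiogenic factor, had the largest rises, 1.29 and 0.79, and SLC1A5, a glutamine transporter, was the one that was lower, at -0.40. The CDKN1A probe was dim, with mean input levels of -6.06 in miR-NC and -4.77 in miR-634 cells and a standard error of 0.19. In the fold change of enrichment 13 were higher and 8 lower (28.1% and 43.2% over all measured genes), with a median of 0.09. SLC1A5, GADD45A and GDF15 had the largest rises, 2.82, 2.57 and 2.51. CDKN1A, CEBPB and BCL2L11 had the largest falls, -1.44, -1.12 and -0.90, but with spike-in scaling CDKN1A had -0.36 (adjusted p = 0.205), CEBPB -0.039 (adjusted p = 0.893) and BCL2L11 0.18, so that none of the 3 was called lower. With normexp and quantile normalization CDKN1A had a log2 input change of 0.47 and a fold change of enrichment of -0.40, both called. Its log2 enrichment was 2.22 in miR-NC and 0.78 in miR-634 cells. Because the input is subtracted, this fall includes the rise of 1.29 in its input.

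In the IRE1 and ATF6 branches with the chaperones of the endoplasmic reticulum, 26 of 28 genes were measured, and 13 were called higher and 3 lower in the input (11.6% and 12.1% over all measured genes), with a median of 0.28. MBTPS1, a protease that activates ATF6, and ATF6B, a relative of ATF6, had the largest rises, 0.72 and 0.64, while the chaperone HYOU1 and the secreted MANF had -0.65 and -0.59. HSPA5 (BiP), the main chaperone of the compartment, had a log2 input change of 0.37 (limma adjusted p = 0.0304), and ATF6 itself 0.27 (adjusted p = 0.00670). The fold change of enrichment was lower for 15 and higher for 6 (43.2% and 28.1% over all measured genes), with a median of -0.44. HYOU1, HERPUD1 and CALR had 1.76, 1.57 and 1.01, and DNAJB9, ATF6 and MBTPS2 -1.30, -1.28 and -1.20. With spike-in scaling the latter were not called, at -0.21 (adjusted p = 0.448), -0.20 (adjusted p = 0.481) and -0.11 (adjusted p = 0.692). HSPA5 had 0.04 (adjusted p = 0.813), which was called with spike-in scaling (1.12), and ERN1, which encodes IRE1, was not measured.

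Of 14 genes of mitochondrial proteases, chaperones and the relay from mitochondria to eIF2, all were measured, and 7 were higher and 4 lower in the fold change of enrichment (28.1% and 43.2% over all measured genes), with a median of 0.45. The proteases AFG3L2 and YME1L1 and the chaperone DNAJA3 had the largest rises, 2.28, 1.60 and 2.18. HSPE1, LONP1 and OMA1 had -1.01, -0.78 and -0.65, which were 0.08, 0.30 and 0.43 with spike-in scaling. In the input 2 were higher, HTRA2 at 0.43 and SPG7 at 0.33, and 2 lower, DNAJA3 at -0.31 and YME1L1 at -0.26. Of 14 paralogues of the 10 genes, 9 were measured, with 3 higher and 5 lower in the fold change of enrichment (28.1% and 43.2% over all measured genes) and a median of -0.43. CREB3, CHAC2 and PPP1R15B had 1.66, 1.28 and 0.88, and TRIB1, ATF1 and CREB3L1 -1.14, -0.86 and -0.86, which with spike-in scaling were -0.054 (adjusted p = 0.852), 0.22 and 0.23. In the input TRIB1, whose product resembles that of TRIB3, was higher at 0.39 and CREB3L1 lower at -0.23.

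Calls in the input of these lists depended on the scaling and on single arrays, as did those of all genes. Over all measured genes, 2602 were called in the input and 856 with spike-in scaling. With spike-in scaling 0 of 5 were left for the eIF2 list, 4 of 12 for the ATF4 and CHOP targets, 4 of 16 for the IRE1, ATF6 and chaperone list, 0 of 4 for the mitochondrial list and 0 of 2 for the paralogues. Among the calls lost were those of DNAJC3 (0.36, adjusted p = 0.258), ATF6B (0.46, adjusted p = 0.109), ATF6 (0.092, adjusted p = 0.804), HSPA5 (0.19, adjusted p = 0.568), HTRA2 (0.25, adjusted p = 0.442), SPG7 (0.16, adjusted p = 0.646) and TRIB1 (0.21, adjusted p = 0.525). Leaving out 1 input array lowered them to as few as 1 of 5 for the eIF2 list, 4 of 12 for the ATF4 and CHOP targets, 10 of 16 for the IRE1, ATF6 and chaperone list, 1 of 4 for the mitochondrial list and 1 of 2 for the paralogues. Of the input calls named above, those of PPP1CB, PPP1CA, PPP1CC, SLC1A5, DNAJA3, YME1L1, CREB3L1 and HSPA5 were lost without any 1 of the 4 input arrays, those of HYOU1 and SPG7 without the miR-NC input array numbered 1 or the miR-634 input array numbered 2, and that of ATF6 without the miR-NC input array numbered 1.

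**Figure D5:**
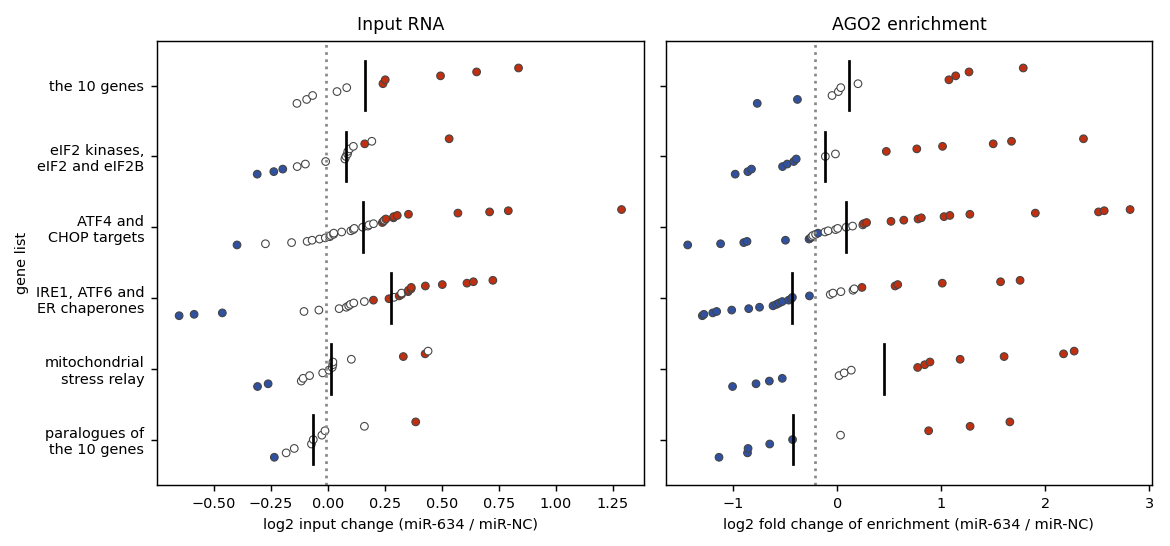
Log2 input change (left) and log2 fold change of enrichment (right), miR-634 over miR-NC cells (x axes), for the 10 genes and 5 lists of related genes (y axis). Points are measured genes, red called higher, blue called lower and white not called by limma. Vertical bars are list medians, and the dotted line is the median of all measured genes. The 10 genes, the ATF4 and CHOP targets and the IRE1, ATF6 and chaperone genes have input medians of 0.16, 0.15 and 0.28, and spike-in scaling shifted the median of all genes by -0.18.

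Across the 8 arrays the level of ATF4 was most like that of EIF1B, MAGOHB and ANO10, with Pearson correlations of 0.998, 0.998 and 0.997, and 949 of 10958 genes were above 0.95. DDIT3 was most like CHPF2, CDH3 and KIF23, with 0.997, 0.995 and 0.995, and 96 genes were above 0.95. These correlations describe the order of 4 groups of 2 arrays.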

How the data were processed

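The authors deposited, per the file headers and labels, the processed intensity of each spot from Agilent Feature Extraction (9.1 in the submitters' processing notes, 12.0 in the file headers; array design on hg19), with background subtracted and no normalization between arrays. The authors also deposited log2 values from GeneSpring, which correlated at 0.999998 or above with log2 intensities scaled to the 75th percentile of all probes of an array and then centered for each probe, and served as an alternative.

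Here, control and outlier spots were left out, spots of a probe averaged, log2 taken and each array shifted by its 75th percentile over the 16808 probes well above background on all 8 arrays (28.9% of probes). Of 33080 probes with a RefSeq accession, 31104 matched a symbol. The brightest measured probe stood for a gene. Limma 3.58.1 in R 4.3.3 was fitted on 4 group means of 2 arrays, with Benjamini-Hochberg adjustment over 10959 genes and a threshold of 0.05. The number of arrays limits the precision. In simulated data for the fold change of enrichment (10959 genes, 200 changed by 1 on the log2 scale), 86.5% were recovered and 7.49% of calls were false. The simulation changed few genes, in the miR-634 RIP only and with independent noise. In the data 7809 genes were called, so these rates do not describe the reported calls. The genes and lists were chosen with earlier results of these data known. Of each list the called genes with the 3 largest rises and falls of the fold change of enrichment and the 2 largest of the input change were named, with the sensors and HSPA5 whatever their values and the 3 genes most like ATF4 and DDIT3. The 21 alternatives were other background corrections, scalings, filters, probe rules, an intensity trend, a replicate block and each array left out, and a 2-fold rule was also tried. Normexp (offset 50) used each spot's median signal. Python 3.11.15 (pandas 2.3.3, numpy 2.4.6, matplotlib 3.10.9) served for tables and plots.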

Additional observations from a re-analysis of the deposited data

Results flagged for a closer look

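The RIP/input of 6 of the 10 genes differed between miR-634 and miR-NC cells by the limma test of the difference itself. In this test 7809 of 10959 measured genes were called, 28.1% of all higher and 43.2% lower. The share of the 10 genes that were called was thus not above that of all genes. The log2 difference was 1.79 for TRIB3 (adjusted p = 5.09e-05), 1.27 for ATF3 (adjusted p = 0.000175), 1.14 for DDIT3 (adjusted p = 3.22e-05) and 1.07 for SESN2 (adjusted p = 6.14e-05). It was -0.77 for ATF4 (adjusted p = 8.27e-05) and -0.38 for XBP1 (adjusted p = 0.00375). With spike-in scaling ATF4 had 0.31 and was not called (adjusted p = 0.265), and XBP1 had 0.70 and was called higher (adjusted p = 0.0119). The call of XBP1 was lost with the authors' processed values (adjusted p = 0.0594), a percentile taken over all probes (0.0595) and centering on the median (0.0918). For ATF3 the value is that of the brightest probe, and the probe A_33_P3214096 gave 0.10 (adjusted p = 0.711). The shares of spots well above background, 33.6% and 34.5% for the RIP of miR-NC cells and 40.0% for that of miR-634 cells, moved with this comparison, and their part in these differences was not tested.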

How the results depend on the processing

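Of the 50 values of the 10 genes, 22 kept their direction and their side of the threshold in all 21 alternatives, among them the fold changes of enrichment of TRIB3, ATF3, DDIT3 and SESN2 and the input change of PPP1R15A. No alternative used the ATF3 probe A_33_P3214096 alone, which gave a log2 fold change of enrichment of 0.10 (limma adjusted p = 0.711). With spike-in scaling 16 values turned, as did 15 of the 56 values of named list genes. The causes were not tested. The fold change of enrichment then was 0.31 for ATF4, 0.70 for XBP1 and 1.03 for ATF5, the input change -0.14 for ATF4 and -0.093 for DDIT4, and the RIP change 0.18 for ATF4, 0.77 for XBP1 and 0.76 for ATF5. The enrichment in miR-NC cells was -0.41 for DDIT4, -0.42 for SESN2, -2.10 for PPP1R15A and -1.50 for ATF5, and that in miR-634 cells -1.10 for DDIT3, -1.23 for ATF3, -1.01 for PPP1R15A and -0.46 for ATF5. Of the list genes, the fold change of enrichment was 0.22 for ATF1, 0.18 for BCL2L11, 0.23 for CREB3L1, 0.66 for EIF2AK2, 1.06 for EIF2AK4, 0.22 for EIF2B1, 0.26 for EIF2B2, 0.076 for HSPE1, 0.30 for LONP1, 0.43 for OMA1 and 0.10 for PPP1CC, and the input change -0.080 for EIF2AK1, -0.089 for EIF2AK2, -0.064 for EIF2AK4 and -0.014 for PPP1CC.

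Under a percentile over all probes, the authors' processed values and centering on the median, the fold change of enrichment of ATF5 was 0.068, 0.068 and 0.17, its RIP change 0.032, 0.031 and 0.038, the RIP change of XBP1 0.033, 0.033 and 0.039, and the fold change of enrichment of EIF2AK4 0.10, 0.10 and 0.20. EIF2AK4 also had 0.095 with normexp and quantile normalization, 0.070 with quantile normalization and 0.028 with median scaling, and the input change of EIF2AK2 was -0.067 with the mean of the probes. The enrichment of TRIB3 in miR-NC cells was 0.012 with median scaling and 0.087 when centered. With 1 array left out, the fold change of enrichment ranged from -0.14 to 0.045 for ATF5, from -0.0061 to 0.028 for PPP1R15A, from -0.063 to 0.13 for HSPA5 and from -0.15 to 0.12 for EIF2AK4, none of them called.

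With a 2-fold rule, the share of all measured genes was not counted for the RIP change and the enrichments. The 2-fold counts of the 10 genes given here for these therefore cannot be compared with the whole array. Of the 10 genes, 5 were called in the input. This count was 1 with spike-in scaling, 3 without a filter on dim probes, between 3 and 5 with 1 array left out and 0 with a 2-fold rule, which gave 4 in place of 8 in the RIP and 5 in place of 9 for the enrichment in either kind of cell. Over all genes 2602 were called in the input, 856 with spike-in scaling, 940 without the filter, 1728 with the percentile over all probes and as few as 943 without 1 array. Of the calls in the fold change of enrichment 39.4% were higher, against 97.4% with spike-in scaling and 53.4% centered on the median. For the input change this share was 48.9%, against 7.48% with spike-in scaling and 61.9% with the percentile over all probes, and for the enrichment in miR-NC and miR-634 cells 42.5% and 42.8%, against 0.648% and 8.07% with spike-in scaling. Arrays with the same number did not deviate together, with correlations of their deviations from the group means between -0.04 and 0.08. A replicate block left 6 of the 10 genes called in the fold change of enrichment and 5 in the input. Of all 10959 measured genes it left 7801 and 2261 called.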
